A study of Mus musculus with 4 samples.

Results

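The 41 genes described here sense viral RNA, carry the type I interferon signal or are induced by it, and they were compared between wild-type and Glut1-deficient mouse keratinocytes. They were chosen by name, with earlier results of these data known, out of 30142 genes named on the arrays. The list holds 13 sensors and signalling genes and 28 effector genes. Each gene was read on its brightest array row among those annotated with exactly 1 gene symbol. Of the 41 genes, 40 had such a row, and Ifi44 was not analysed here. In brief, 3 of 4 RNA sensors (Ddx58, Ifih1 and Tlr3) and the transcription factor Irf1 fell in the Glut1-deficient cells, whereas Stat2 rose. Over all rows of the arrays 7.22% were called, or 14.1% of the rows above background. In that limma fit 6720 of 30604 rows had an unadjusted p under 0.05. Among 27 measured effector genes, Ifitm3 and Parp14 fell, 25 did not pass the test and 13 were at or below the array background on all 4 arrays. None of the 7 calls among these genes passed limma's test when wild-type array 1 was left out or when every row of the array was tested, with 11 and 13 of the genes at an unadjusted p under 0.05.

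Keratinocytes, the epithelial cells of the epidermis, were taken from C57BL/6J mice at 1 week of age, 4 wild-type animals and 4 whose keratinocytes lack Glut1, the facilitative glucose transporter encoded by Slc2a1. Both genotypes grew in the same keratinocyte medium, with 0.05 mM CaCl2, EGF, insulin, hydrocortisone, bovine pituitary extract and antibiotics. After 3 days the cells were replated at 2000000 per plate on collagen and lysed the next day. Plates of a genotype were pooled at random, 2 per array, which gave 2 Affymetrix MTA-1_0 arrays for each genotype (wild type 1 and 2, Glut1-deficient 1 and 2). Neither the Cre driver nor the deleted part of Slc2a1 is named in the sources used here. No interferon, virus or RNA ligand is named among the treatments.

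Signals are on the log2 scale, so a difference of 1 is a doubling. Differences are Glut1-deficient minus wild type, with the standard error of a limma fit over 30604 rows and its Benjamini-Hochberg adjusted p, called below 0.05. The p-values measure the spread between pooled plates only, and precision is limited by having 2 arrays a group. An exact two-sided permutation test of 2 arrays against 2 cannot go below p = 0.333. Slc2a1, the targeted gene, read 13.26 and 13.40 in wild type against 12.09 and 12.01 in Glut1-deficient cells (-1.28, SE 0.10, limma adjusted p = 0.00754). Whether its probes lie in the deleted part is not known here, so the signal that remained does not measure how complete the deletion was. Array medians lay between 4.19 and 4.24, and arrays correlated at 0.998 and 0.997 within the genotypes and at 0.989 to 0.992 between them. A row counted as above background where both arrays of at least 1 genotype exceeded the 95th percentile of the array's background control rows, a floor of 4.36 to 4.87 depending on the array. Of 30604 rows, 2209 were called (7.22%), 952 lower (3.11%) and 1257 higher (4.11%).

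The keratinocyte label was borne out by its brightest markers: Krt5 lay between 17.98 and 18.69 and Krt14 between 16.97 and 17.60. Of 8 keratinocyte markers 7 were above background, Krt10 among them at only 5.26 to 5.48, and Krt1 was not (4.34 to 4.53). The summed signal of the 8 is led by the brightest genes. Its log2 was 19.4 and 19.5 in wild type against 19.2 and 19.0 in Glut1-deficient cells. Of the 8 keratinocyte markers, Dsg3 was the 1 called, and it rose (0.92, limma adjusted p = 0.0157). In that list 6 differences were negative and 2 positive. Some markers of other cell types were higher on the Glut1-deficient arrays. The log2 of the summed signal was 8.75 and 8.50 against 10.4 and 12.0 for 6 of 7 fibroblast markers, 7.10 and 7.27 against 10.2 and 9.64 for 5 endothelial markers, 8.34 and 8.42 against 9.53 and 10.3 for 9 of 10 macrophage and dendritic markers, and 10.5 and 10.0 against 12.4 and 11.1 for 6 melanocyte markers. For 5 of 8 T cell markers it was 6.40 and 6.51 against 6.52 and 6.51. At the floor on every array were Cd3e, Cd3g, Cd247 and Ptprc of the T cell list, Adgre1, Csf1r, Lyz2, Itgam, Cd207, Tyrobp and Fcer1g of the macrophage and dendritic list, Cdh5, Tie1 and Emcn of the endothelial list, and Col3a1 and Lum of the fibroblast list. Among the markers of other cell types that rose were Vim (2.88), Cd68 (1.95), Kdr (3.60), Dcn (1.68) and Pmel (1.04). The fibroblast sum was led by Vim, at 8.38 and 8.04 against 10.25 and 11.92. Vim and Dcn were the 2 called of that list, in which all 6 differences were positive. The melanocyte sum was led by Tyrp1, which did not pass (1.49, limma adjusted p = 0.136). Pmel was the 1 called of the melanocyte list, in which all 6 differences were also positive. Cd68 was the 1 marker called of its list, in which 7 of 9 differences were negative, and Kdr the 1 called of the endothelial list. Pecam1, another endothelial marker, read 4.60 and 4.66 against 4.37 and 4.26 (-0.32, limma adjusted p = 0.141). These differences lay along the genotype contrast, and their part in the results on the members was not tested. In RNA from whole cultures, fewer cells of a type and less RNA per cell cannot be told apart.

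As background, double-stranded RNA is recognised in the cytoplasm by RIG-I (Ddx58) and MDA5 (Ifih1), which act through the mitochondrial adaptor Mavs, and in endosomes by Tlr3. Both routes activate the kinases Tbk1 and Ikbke and the transcription factors Irf3 and Irf7, which switch on interferon genes. Secreted type I interferon binds Ifnar1 and Ifnar2 and activates a complex that holds Stat2 and Irf9 and binds the interferon-stimulated response element (ISRE) of target genes. Some interferon-responsive genes carry another element, named GAS. Keratinocytes are known to hold these sensors as part of the skin barrier.

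Promoter stretches are shown for 5 of the 7 called members and for members of other patterns, since the letters of the interferon response elements can be compared between them. Tlr3 had no match, and Parp14 is named only. RefSeq promoters of build GRCm38.p6, from 250 bases before to 50 after the gene start, were held for 32 of the 41 genes. The ISRE core was searched on both strands as the letters GAAA, any 2 bases and GAAA again. A GAS-type motif was searched as TTCNNNGAA, which reads alike on both strands; the motifs may overlap each other, as they do in Bst2 and Ifitm3. The stretches run 5′ to 3′ on the gene's strand, and capitals mark the bases of the motif named for that line; overlapping letters of the other motif are left in lower case. The first group is genes that fell:
Ddx58, chr4:40239804-40239833, minus strand, ISRE core from base 3 after the start: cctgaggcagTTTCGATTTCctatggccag
Ifih1, chr2:62646206-62646235, minus strand, ISRE core from base 33 after the start: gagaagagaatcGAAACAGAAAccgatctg
Ifitm3, chr7:141010723-141010752, minus strand, ISRE core from base 3 after the start: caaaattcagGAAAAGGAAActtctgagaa
Ifitm3, chr7:141010706-141010735, minus strand, ISRE core from base 20 after the start: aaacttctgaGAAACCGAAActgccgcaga
Irf1, chr11:53769899-53769958, plus strand, GAS-type motif from base 90 before the start: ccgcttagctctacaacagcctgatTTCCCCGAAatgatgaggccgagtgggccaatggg

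Next come Stat2, which rose, Bst2, which was higher without passing the test, Isg15, which lay near the background, and Ifit1, which was below it:
Stat2, chr10:128270251-128270310, plus strand, ISRE core from base 222 before the start: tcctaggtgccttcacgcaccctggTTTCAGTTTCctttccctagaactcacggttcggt
Bst2, chr8:71537568-71537627, minus strand, 2 overlapping ISRE cores: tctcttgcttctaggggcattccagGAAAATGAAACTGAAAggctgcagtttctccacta
Isg15, chr4:156200862-156200921, minus strand, 3 overlapping ISRE cores: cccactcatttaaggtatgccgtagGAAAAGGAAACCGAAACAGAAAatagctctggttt
Ifit1, chr19:34640760-34640819, plus strand, 2 ISRE cores from bases 104 and 85 before the start: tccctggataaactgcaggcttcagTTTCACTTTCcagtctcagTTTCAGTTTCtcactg

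An ISRE core stood in 13 of the 32 members with a promoter (40.6%), against 1079 of 27025 genes in the promoter table (3.99%), or 1131 of its 32851 promoters (3.44%). It was in 3 of 12 sensors and signalling genes (Ddx58, Ifih1 and Stat2) and in 10 of 20 effector genes (Isg15, Ifit1, Ifit3, Oas1a, Oas3, Gbp2, Gbp3, Rsad2, Ifitm3 and Bst2). Among the members that fell it was in 3 of 5, and Stat2, which rose, had it too. It was also in 5 of 10 members that were not above background and in 4 of 15 that were above it without passing the test, so the letters were present in genes of every pattern. The GAS-type motif was in 9 of 32 members (28.1%), against 9.55% of genes in the table. The window of Tlr3 held neither set of letters. A match is a description of these letters and not a site of binding.

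Over all 40 measured genes, 7 were called (17.5%, against 7.22% of all rows), 6 lower (3.11% of all rows were called lower) and 1 higher (4.11%). The other 33 did not pass. Because the members were chosen with earlier results of these data known, such shares describe the list and do not test it. An unadjusted limma p under 0.05 was found in 14 of the 40, and in 6720 of the 30604 rows tested. The median difference was -0.08, beside -0.01 over all rows. Only 24 of the 40 were above background, and the 7 calls lay among those; 2155 of the 15233 rows above background were called (14.1%), 6.11% lower and 8.04% higher. By group, 5 of 13 sensors and signalling genes were called (38.5%) and 2 of 27 effector genes (7.41%), with medians of -0.07 and -0.10. The effector share was near the 7.22% of all rows. Above background, the calls were 5 of 11 (45.5%) and 2 of 13 (15.4%), the latter near the 14.1% of all such rows. The groups of arrays did not overlap in 28 of the 40 genes, 19 lower and 9 higher in Glut1-deficient cells, where 25.8% and 23.8% of all rows did so. Among the 24 above background, 12 were lower and 8 higher without overlap, where 32.4% and 32.6% of such rows were.

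**Figure D1:**
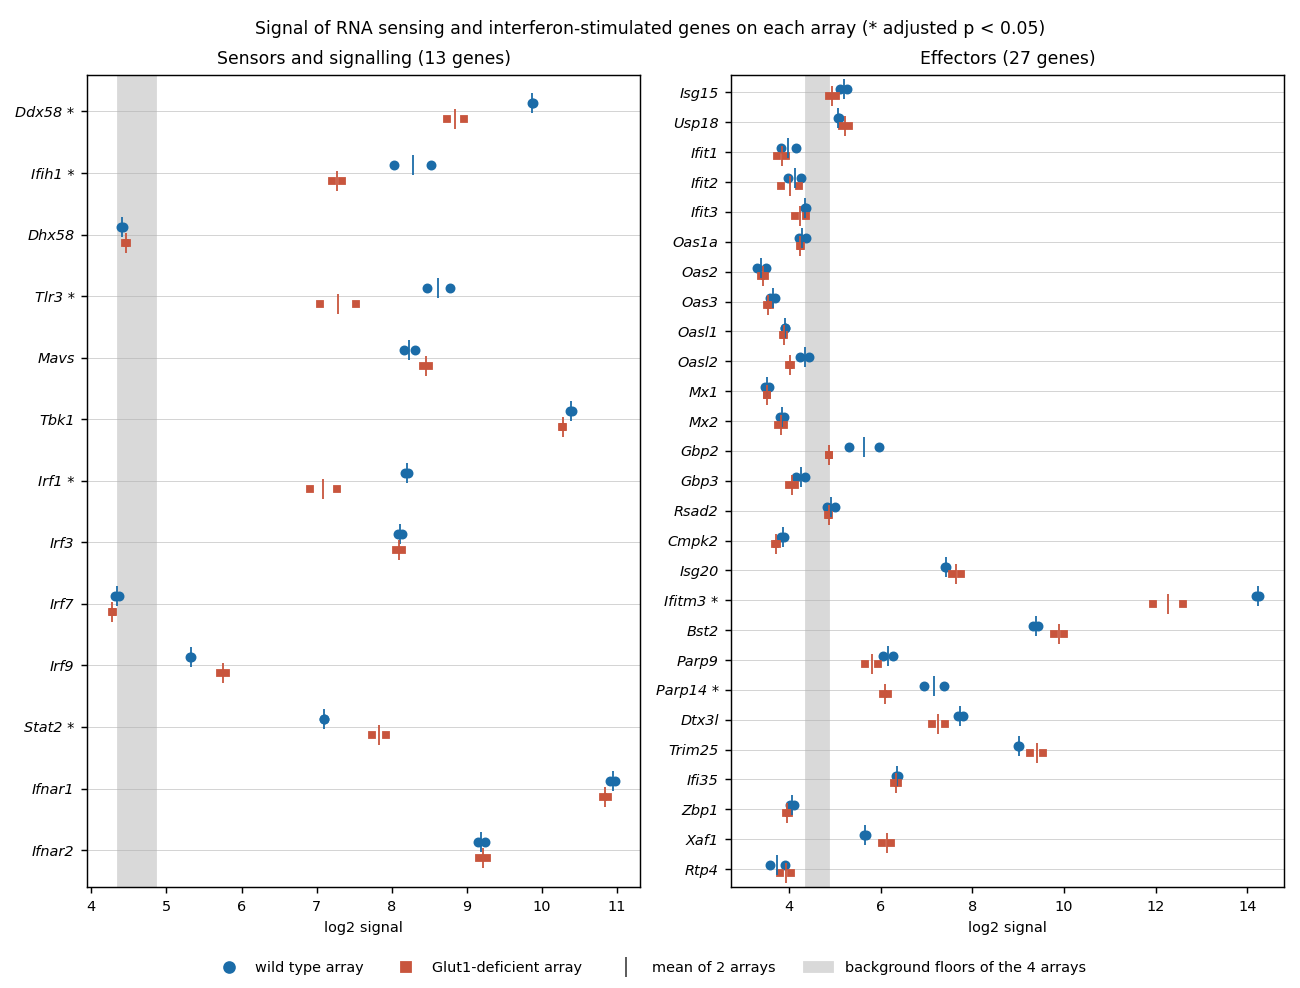
Log2 signal of the measured members on each array, by list and role, with the background floors of the arrays marked. Ddx58, Ifih1, Tlr3, Irf1, Ifitm3 and Parp14 sit lower and Stat2 higher on both Glut1-deficient arrays than on both wild-type arrays, and the IFIT and OAS families lie at the floor.

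Of the RNA sensors, Ddx58, which encodes RIG-I, the cytoplasmic sensor of RNA with a 5′ triphosphate, read 9.86 and 9.88 in wild type and 8.73 and 8.96 in Glut1-deficient cells. Both Glut1-deficient arrays lay below both wild-type arrays, by more than either pair differed within itself. The mean fell from 9.87 ± 0.01 to 8.84 ± 0.16 (SD, n = 2 arrays each), 2.04-fold lower (-1.03, SE 0.11, 95% interval -1.32 to -0.74, limma adjusted p = 0.0147). An ISRE core begins at base 3 after its start, as printed above, as it does in Ifitm3.

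Ifih1 encodes MDA5, the sensor of long double-stranded RNA. It read 8.52 and 8.03 in wild type against 7.20 and 7.34 in Glut1-deficient cells. The wild-type pair was spread more widely than the deficient pair, and the groups did not overlap. The fall was 2.01-fold (-1.01, SE 0.18, 95% interval -1.47 to -0.54, limma adjusted p = 0.0406). Over 12 alternative fits the difference lay between -1.25 and -0.76. The call held in 8 of those 12, as it did for Ddx58, Tlr3, Irf1, Stat2 and Parp14.

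Tlr3, the endosomal receptor for double-stranded RNA, read 8.77 and 8.47 in wild type against 7.04 and 7.52 in Glut1-deficient cells. All of the deficient readings lay below all of the wild-type ones. It fell 2.53-fold, a difference of -1.34 (SE 0.20, 95% interval -1.85 to -0.83, limma adjusted p = 0.0253). Dhx58 encodes LGP2, the regulator of RIG-I and MDA5 that lacks their signalling domains. It read 4.40, 4.42, 4.45 and 4.48 across the 4 arrays, above the floor on only 1 of them, so its level was not measured beyond background (0.06, limma adjusted p = 0.820).

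Downstream of the sensors, neither the adaptor nor the kinase among the members passed the test. Mavs, the mitochondrial adaptor of RIG-I and MDA5, read 8.16 and 8.31 against 8.50 and 8.41. The deficient arrays were both a little higher, and the difference was 0.22 with a 95% interval of -0.05 to 0.49 (limma adjusted p = 0.318). Tbk1, the kinase that phosphorylates Irf3, read 10.39 and 10.37 against 10.28 and 10.27 (-0.11, 95% interval -0.34 to 0.12, limma adjusted p = 0.610). The lower bound for Tbk1 is a difference smaller than that of any of the 3 sensors that fell.

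The 5 transcription factors did not move as a group: 1 fell, 1 rose and 3 did not pass. Irf1, a factor induced by interferon and by NF-κB signalling that drives many antiviral genes, read 8.18 and 8.22 in wild type and 6.91 and 7.27 in Glut1-deficient cells. It was lower on both deficient arrays and fell 2.16-fold (-1.11, SE 0.14, 95% interval -1.47 to -0.74, limma adjusted p = 0.0192). Another row of Irf1 lay at the floor and did not pass (limma adjusted p = 0.622).

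Stat2, the subunit that is particular to the type I and III interferon response, moved the other way. It read 7.10 and 7.10 in wild type and 7.92 and 7.73 in Glut1-deficient cells, with no overlap. It rose 1.66-fold (0.73, SE 0.11, 95% interval 0.45 to 1.00, limma adjusted p = 0.0254). Irf9, the DNA-binding partner of Stat2, read 5.31 and 5.33 against 5.79 and 5.71. Both deficient arrays were higher, by 0.43 (95% interval 0.19 to 0.67), without passing over all rows (limma adjusted p = 0.0637).

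Irf3, the factor that Tbk1 activates, read 8.08 and 8.14 against 8.05 and 8.14, and the groups overlapped (-0.01, 95% interval -0.26 to 0.23, limma adjusted p = 0.966). Irf7, the interferon-inducible counterpart of Irf3, read between 4.28 and 4.37 and exceeded the floor on 1 array only. The receptor chains Ifnar1 and Ifnar2 were well above background. Ifnar1 read 10.91 and 10.97 against 10.88 and 10.81 (-0.10, 95% interval -0.34 to 0.15, limma adjusted p = 0.685). Ifnar2 read 9.15 and 9.24 against 9.16 and 9.27 (0.02, 95% interval -0.23 to 0.28, limma adjusted p = 0.944). The unadjusted intervals of both receptor chains did not reach the difference seen for any of the sensors that fell. Like the p-values, these intervals measure the spread between pooled plates only.

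**Figure D2:**
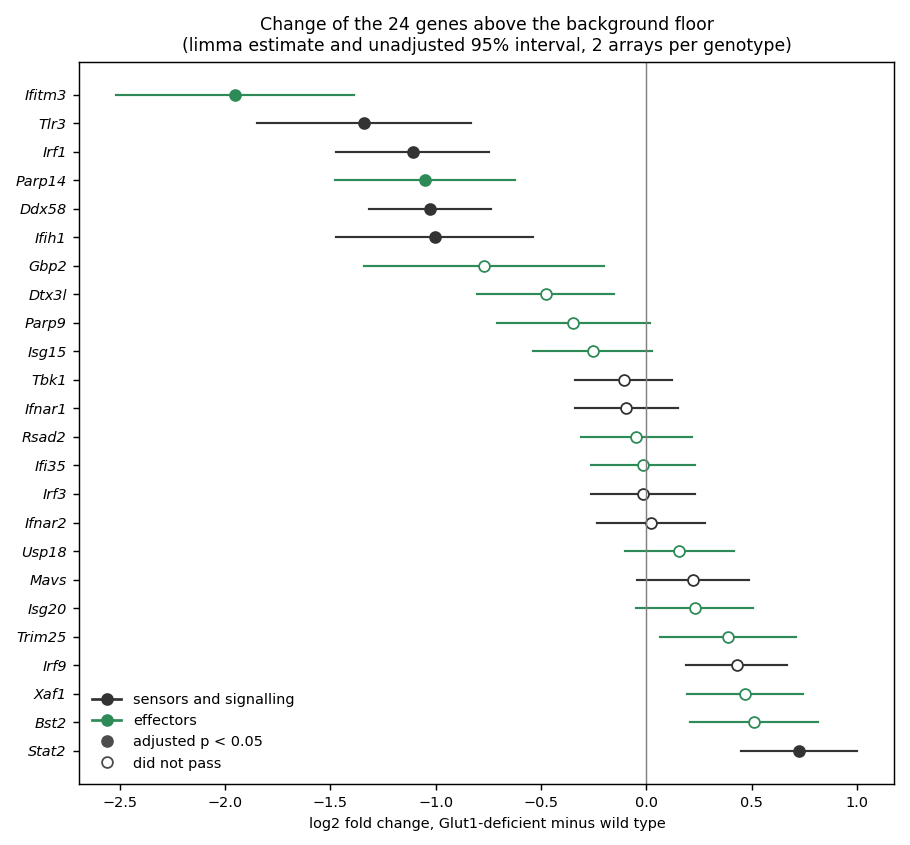
Difference in log2 signal (Glut1-deficient minus wild type) of the 24 members above background, in order of size, with the unadjusted 95% interval from limma; colour gives the list and filled points were called. Ifitm3, Tlr3, Irf1, Parp14, Ddx58 and Ifih1 lie at the negative end with intervals below 0, Stat2 at the positive end, and Irf3 and Ifnar2 centre near 0.

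Among the effectors, the largest fall was that of Ifitm3, a membrane protein that blocks the fusion of enveloped viruses in endosomes. It read 14.26 and 14.20 in wild type and 11.95 and 12.60 in Glut1-deficient cells. The wild-type arrays were close together, and the deficient arrays differed from each other by more (SD 0.05 and 0.46) while lying below both. It fell 3.87-fold (-1.95, SE 0.22, 95% interval -2.52 to -1.39, limma adjusted p = 0.0151). Ifitm2, a near relative in the same family, read 12.90 and 12.76 against 11.72 and 12.52 and did not pass (-0.71, limma adjusted p = 0.212). Members of this family are alike in sequence, so signal shared between their probes cannot be told apart here.

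Bst2 encodes tetherin, which holds budding virus particles at the cell surface. It read 9.43 and 9.33 against 10.01 and 9.78, higher on both deficient arrays (0.51, 95% interval 0.21 to 0.81, limma adjusted p = 0.0730). Of the pair of membrane restriction genes, Ifitm3 therefore fell, and Bst2 had a difference above 0 that did not pass.

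Parp14, a mono-ADP-ribosyltransferase, lies beside Dtx3l and Parp9 on mouse chromosome 16. Parp14 read 7.37 and 6.93 in wild type and 6.05 and 6.16 in Glut1-deficient cells. The groups did not overlap and Parp14 fell 2.07-fold (-1.05, SE 0.17, 95% interval -1.48 to -0.62, limma adjusted p = 0.0295). Over 12 alternative fits its difference lay between -1.27 and -0.83. Its call was lost with every row tested and in most fits that left out 1 array. Its neighbours, which encode a ubiquitin ligase and its ADP-ribosyltransferase partner, were lower on both deficient arrays without passing. Dtx3l read 7.79 and 7.69 against 7.40 and 7.12 (-0.48, limma adjusted p = 0.101). Parp9 read 6.26 and 6.05 against 5.95 and 5.66 (-0.35, limma adjusted p = 0.251). Trim25, the ubiquitin ligase that acts on RIG-I, read 9.02 and 9.00 against 9.26 and 9.54, higher on both deficient arrays (0.39, 95% interval 0.07 to 0.71, limma adjusted p = 0.156).

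The classic interferon-induced families were low in both genotypes. The IFIT proteins bind viral RNA at its 5′ end, and the rows of Ifit1, Ifit2 and Ifit3 read between 3.74 and 4.37, at or below the floor on all 4 arrays. Ifit1, whose promoter carries 2 ISRE cores, read 4.14 and 3.82 against 3.93 and 3.74. Some of the OAS proteins make the activator of RNase L, and the 5 members of the family measured read between 3.29 and 4.44. Oasl2 alone among those 5 exceeded the floor on any array, at 4.44 on wild-type array 1, with 4.24 on the other and 4.04 and 4.00 in deficient cells (-0.32, limma adjusted p = 0.171). Mx1, Mx2, Gbp3, Cmpk2, Zbp1 and Rtp4 were likewise at or below the floor on every array. At this signal a difference between the genotypes was not detectable, which does not show that the genes were silent.

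Other effectors lay just above the floor or in the middle of the range, and none of them passed. Isg15, the ubiquitin-like protein conjugated after interferon exposure, read 5.27 and 5.12 against 5.01 and 4.86 (-0.25, limma adjusted p = 0.280). Usp18, the protease that removes it, read 5.08 and 5.07 against 5.16 and 5.30 (0.16, limma adjusted p = 0.475). Gbp2, a guanylate-binding GTPase, read 5.97 and 5.31 against 4.87 and 4.87; the groups did not overlap, and the wild-type arrays were far apart (-0.77, SE 0.22, limma adjusted p = 0.122). Xaf1, a pro-apoptotic gene induced by interferon, read 5.68 and 5.64 against 6.04 and 6.22, higher on both deficient arrays (0.47, 95% interval 0.20 to 0.74, limma adjusted p = 0.0705). Isg20, an exonuclease, read 7.43 and 7.41 against 7.75 and 7.55 (0.23, limma adjusted p = 0.320). Rsad2, which encodes viperin, and Ifi35 overlapped between the genotypes, at 4.83 to 4.99 and at 6.29 to 6.39.

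The wild-type arrays themselves differed in one direction across the effectors above background. Wild-type array 1 was higher than wild-type array 2 in 13 of 13 effector genes above background and in 4 of 11 sensors and signalling genes, where 55.2% of all rows above background were higher on array 1. The median difference over the 13 effectors was 0.10. Array 1 was higher in 12 of 24 further interferon-stimulated genes above background. The difference between the wild-type arrays was 0.016 for Usp18, 0.018 for Trim25 and 0.025 for Isg20. It was 0.66 for Gbp2 and 0.44 for Parp14, and among the sensors it was 0.49 for Ifih1 and 0.30 for Tlr3. Ddx58, Irf1 and Stat2, by contrast, differed by less than 0.05 between the wild-type arrays. With either wild-type array 1 or Glut1-deficient array 1 left out, the differences kept their direction while calls were lost: all 7 in the first case, and all except Ifitm3 in the second. Without wild-type array 1 the difference was -1.04 for Ddx58, -1.13 for Irf1, -1.19 for Tlr3, -0.76 for Ifih1, 0.73 for Stat2, -1.92 for Ifitm3 and -0.83 for Parp14. Such a fit has 1 array in a group and takes the spread from the other genotype, so it gives less power than the full fit.

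**Figure D3:**
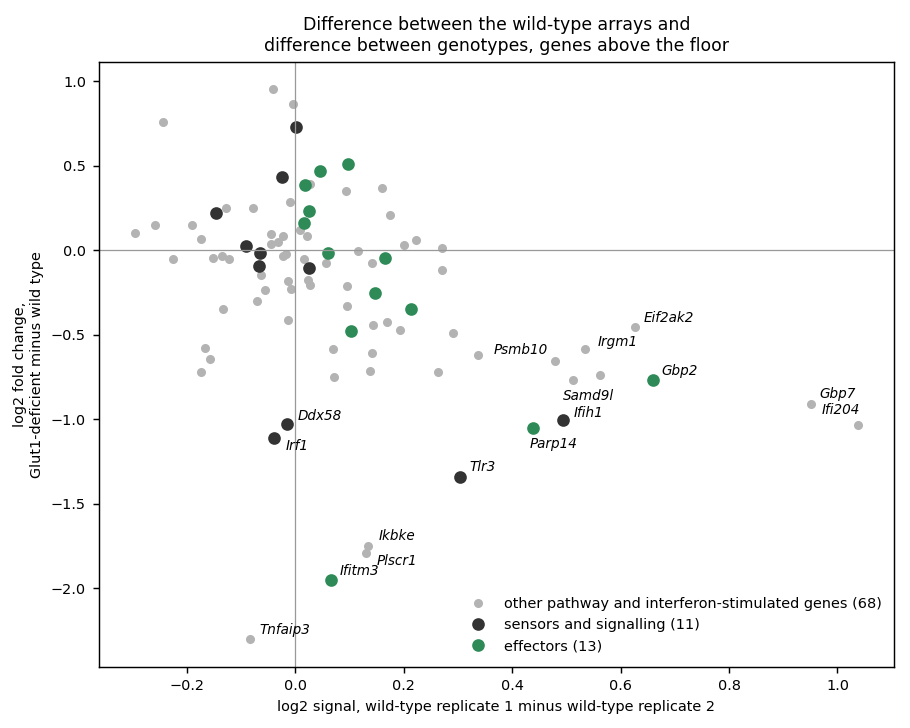
Log2 signal of wild-type array 1 minus wild-type array 2 (horizontal) against the log2 difference between the genotypes (vertical), 1 point a gene above background, coloured by list; both axes use the wild-type arrays. The 13 effector genes lie to the right of 0, with Gbp2 at 0.66 and Parp14 at 0.44, whereas Ddx58 and Irf1 are low on the vertical axis with next to no difference between the wild-type arrays.

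Further genes of the pathway, from named lists of 121 genes of which 106 were measured, gave 10 calls (9.43%, against 7.22% of all rows), 9 lower and 1 higher. All 10 lay among the 68 above background, a share of 14.7% that is near the 14.1% of all rows above background. By direction, 6.11% of all rows above background were called lower and 8.04% higher. These lists too were chosen with earlier results of these data known, so their shares here and below are descriptions. No interferon gene was called by limma among the 13 measured, with 1 at an unadjusted p under 0.05, and 10 of them were at the floor on every array. The gene with the smallest p was Ifnk, the interferon made by keratinocytes, which read 3.45 and 3.40 against 3.86 and 3.76, under the floor throughout (limma adjusted p = 0.0857). Next by p was Ifna11, a type I interferon, at 3.51 and 3.48 against 3.34 and 3.34 (limma adjusted p = 0.429). Ifnl3, a type III interferon, was the 1 gene of this list above background, and it did not pass (-0.05, limma adjusted p = 0.881).

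Among 37 measured signalling genes outside the members, 3 were called, all lower (8.11%, against 7.22% of all rows called and 3.11% called lower). They were 9.38% of the 32 above background, where 14.1% of all such rows were called and 6.11% called lower. Tnfaip3 encodes A20, the NF-κB-induced brake on this signalling, and read 11.53 and 11.62 against 9.19 and 9.37 (-2.30, SE 0.11, limma adjusted p = 0.00294). Ikbke, the kinase related to Tbk1, read 10.63 and 10.49 against 8.71 and 8.92 (-1.75, SE 0.12, limma adjusted p = 0.00523). Cgas, the sensor of cytoplasmic DNA, read 6.80 and 6.96 against 6.27 and 6.21 (-0.64, SE 0.10, limma adjusted p = 0.0310). All 3 were separated between the genotypes on every array, and the fall of Ikbke stood beside a Tbk1 difference that did not pass.

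Of 44 further interferon-stimulated genes measured, 6 were called (13.6%, against 7.22% of all rows). Of these, 5 were lower and 1 higher, where 3.11% and 4.11% of all rows were. All 6 lay among the 24 above background, a share of 25% beside 14.1% of all such rows. Plscr1, a phospholipid scramblase that restricts viruses, read 8.40 and 8.27 against 6.45 and 6.65 (-1.79, SE 0.12, limma adjusted p = 0.00521). Smaller falls were measured for Samhd1, a dNTP hydrolase (-0.75, limma adjusted p = 0.0437), Pml, the organiser of nuclear bodies (-0.72, 0.0247), Parp12 (-0.58, 0.0305) and Ube2l6, the conjugating enzyme for Isg15 (-0.58, 0.0479). Cd274, which encodes PD-L1, rose, with readings of 5.46 and 5.70 against 6.46 and 6.21 (0.76, limma adjusted p = 0.0427). Of 12 measured antigen processing genes, 1 was called, lower (8.33%, against 7.22% of all rows called and 3.11% called lower). This was Erap1, the peptide-trimming aminopeptidase of the endoplasmic reticulum. Erap1 read 10.20 and 9.94 against 9.35 and 9.35 (-0.72, limma adjusted p = 0.0341). With any 1 of the 4 arrays left out, which leaves 1 array in a group assumed to vary like the other genotype, limma's adjusted p was at most 0.0256 for Tnfaip3, 0.0366 for Ikbke and 0.0348 for Plscr1. Under the same limit Samhd1 passed in 1 of those 4 fits, and Cgas, Pml, Parp12, Ube2l6, Cd274 and Erap1 in none. Quantile normalization ended the calls of Cgas (limma adjusted p = 0.0685), Cd274 (0.0667) and Ube2l6 (0.0784), and the replicate block ended those of Cgas (0.0531), Parp12 (0.0605), Ube2l6 (0.0609) and Cd274 (0.0556). Ube2l6 passed in 2 of 12 alternatives. Median centring ended the calls of Samhd1 (0.0551) and Ube2l6 (0.0525).

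**Figure D4:**
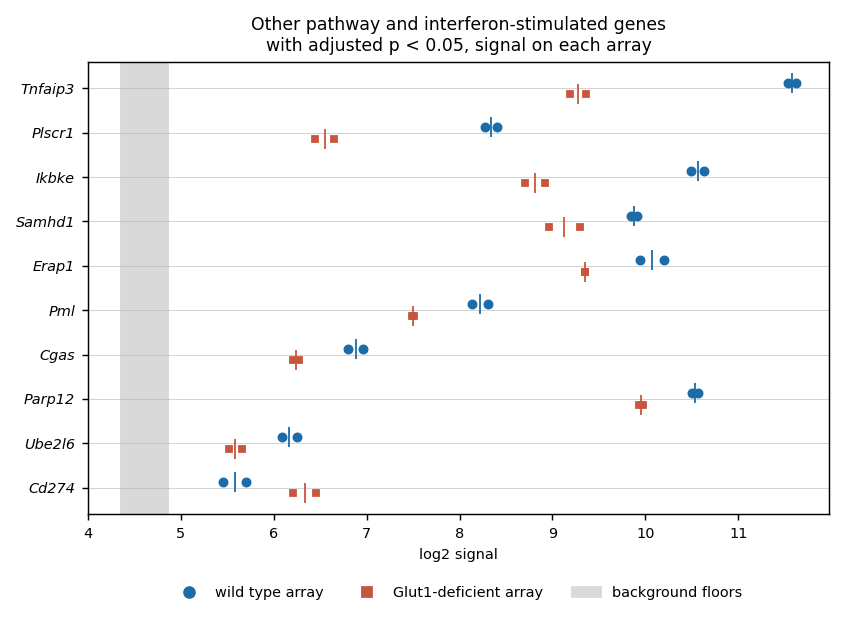
Log2 signal on each array of the further pathway genes that were called. Tnfaip3, Ikbke and Plscr1 are the genes with the widest gap between the wild-type and the Glut1-deficient arrays, and Cd274 is the gene that is higher in Glut1-deficient cells.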

How the data were processed

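RNA was measured on 4 Affymetrix MTA-1_0 arrays. The authors deposited log2 gene-level signals, named SST-RMA per the labels; Affymetrix Expression Console and RMA are listed in the submitters' processing notes, with versions not given in the sources used here. Of 72688 rows, 6732 were controls, 33206 had no gene symbol and 2146 had several; 30604 rows with 1 symbol, after 827 symbols were updated through GRCm38.p6 RefSeq tables, entered the test. No further normalization was applied. Differences were tested with limma 3.58.1 (lmFit and eBayes, R 4.3.3) without a block, with Benjamini-Hochberg adjustment over 30604 rows; the script was tested on simulated data. The brightest row stood for each gene. Values were given for called members, RNA sensors, receptors, adaptors, kinases and transcription factors, the 6 largest rises and falls above background, the 3 highest means, and the called genes of each further list (if none, the 2 of smallest p). Other genes with values were chosen after those were seen. Members and lists were chosen with earlier results of these data known. The GAS-type motif, the filter on rows above background and the crossed block were added after seeing the data. Alternatives were quantile normalization, median centring, filters on dim rows, every row tested, the mean of a gene's rows, trended and robust eBayes, a replicate block and leaving out each array. Replicate numbers were not tied to animals.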

Additional observations from a re-analysis of the deposited data

How the results depend on the processing

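The 7 calls among the members were also made after quantile normalization, centring, trended and robust eBayes, both filters and either block, each of which kept 7 of 7. Counts depended on how many rows shared the adjustment and on single arrays. With every row of the array tested, 74 rows were called, with 0 members (0 lower, 0 higher; limma, 13 at an unadjusted p under 0.05) and 1 further pathway gene, and Slc2a1 at -1.28 had an adjusted p of 0.0648. Leaving out 1 array each gave 314 to 1214 called rows, 0 to 5 members, 0 to 4 lower and 0 to 1 higher, 3 to 5 further pathway genes, and -1.35 to -1.21 for Slc2a1. Without wild-type array 1 no member was called by limma (11 at an unadjusted p under 0.05) and without Glut1-deficient array 1 only Ifitm3 was called (13 at an unadjusted p under 0.05). Without wild-type array 2 the adjusted p was 0.0638 for Ddx58, 0.0557 for Tlr3, 0.0739 for Irf1 and 0.112 for Stat2, and without Glut1-deficient array 2 it was 0.104 for Ifih1 and 0.0866 for Parp14. Genes called higher numbered 2 after quantile normalization (Xaf1 added) and 4 under the filter at the median and under the filter at the floor (Irf9, Bst2 and Xaf1 added), which test fewer rows. The sign turned for Irf3, at 0.027 after quantile normalization and from -0.057 to 0.029 with 1 array left out, and for Ifnar2, from -0.031 to 0.080 with 1 array left out. With the replicate block, which the labels do not tie to animals, 6 further pathway genes were called and 1849 rows in all. Same-numbered arrays deviated with a correlation of -0.23, and with the crossed pairing 7 members and 2039 rows were called. Except where stated, the cause was not tested. Members near the floor are limited by signal over background.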

Other observations

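Some further interferon-stimulated genes, chosen after their values were seen, were also higher on wild-type array 1 than on wild-type array 2. Over that list there was no such direction: 12 of its 24 genes above background were higher on array 1. Ifi204, a nuclear DNA-binding protein of the interferon-inducible p200 family, read 9.42 and 8.38 in wild type and 7.87 and 7.86 in Glut1-deficient cells (-1.04, limma adjusted p = 0.153). Gbp7, a guanylate-binding GTPase, read 8.28 and 7.33 against 6.59 and 7.21 (-0.91, limma adjusted p = 0.239). Neither passed the test, and both had their highest reading on wild-type array 1.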
